A study of Mus musculus with 11 samples.

Results

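The major urinary proteins (MUPs) are small secreted lipocalins that male mouse hepatocytes release in very large amounts, and that reach the urine, where they bind volatile pheromones and release them slowly. Their genes form a tandem array of near-identical copies. In liver their transcription is driven by the pulsatile growth hormone of males through the JAK2-STAT5 pathway, and it also responds to androgens, thyroid hormone, glucocorticoids and feeding. The 10 genes described here, Mup1, Mup3, Mup7, Mup10, Mup11, Mup14, Mup17, Mup20, Mup21 and Mup22, were the rows of a count table of 13669 genes that carry these symbols. The table holds 40 rows of the Mup family in all, of which 22 are genes and 18 are pseudogenes, so 12 Mup genes are not among the 10. The members were chosen by measured values, their share of the reads and the spread of that share between livers of the same group, and those values are given as a description, with no test. All 10 members passed the filter, which asks for over 10 reads in 5 or more livers.

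The RNA came from livers of male C57BL/6J mice labelled as wild type and kept on regular chow. Every mouse had received a recombinant adeno-associated virus, which the methods describe as serotype 8 with the liver-specific LP1 promoter, so a virus was present in both groups. In the 6 AAV-TuD livers (replicates 3, 4, 5, 9, 10 and 11) the virus encoded a tough decoy, a hairpin RNA that captures the microRNAs miR-379 and miR-541 and so keeps them from their targets. The paper reports that in liver this decoy also lowered their host transcripts, lncMGC and Mirg, and other microRNAs of the same gene cluster. In the 5 AAV-NC livers (replicates 1, 2, 6, 7 and 8) the virus encoded a negative control sequence. The labels give neither the age of each mouse nor its time after virus. The paper's methods cover the decoy experiments as a whole. They give a fast of 5 to 6 h before death, which came between 4 weeks and 3 months after virus. Which of these times applies to these livers is not stated there. The comparison asks which liver transcripts differ once the decoy has been expressed. Total reads per liver were between 8148531 and 12043959. The hepatocyte markers Alb, Ttr, Apoa1, Serpina1c, Cps1, Cyp2e1 and Tat were 7 of 7 measured, and the lymphocyte markers Cd3e, Cd79a, Ms4a1 and Nkg7 were 0 of 4 among the genes tested.

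All 10 members lie on the minus strand of chromosome 4, between bases 60066469 and 62150863 of GRCm38 (GENCODE M21), in the order Mup7, Mup1, Mup10, Mup11, Mup22, Mup14, Mup17, Mup20, Mup3 and Mup21 of increasing coordinate. The annotated transcripts have 6 or 7 exons and between 677 bases (Mup21) and 984 bases (Mup3). The coding sequences of Mup1, Mup7, Mup10, Mup11, Mup14, Mup17 and Mup22 were identical at 98.3% to 99.6% of aligned bases in their 21 pairs, and these genes are called the 7 near-identical members below. Mup20, which encodes the male scent protein darcin, was 89.8% to 91.3% identical to the 7 in coding sequence. Mup3 and Mup21 were 95.4% identical to each other and 83.1% to 84.7% identical to the 7. A stretch of 30 coding bases in exon 2 shows these 4 kinds of sequence, with capitals for the 14 positions at which at least 1 of the 10 members differs. The 7 near-identical members all carry the stretch given for Mup10, the stretch of Mup20 differs from it at 3 positions, that of Mup3 at 12 and that of Mup21 at 13. The stretches, each read on the minus strand, lie at chr4:60581621-60581650 (Mup10), chr4:62053580-62053609 (Mup20), chr4:62086900-62086929 (Mup3) and chr4:62150295-62150324 (Mup21).
Mup10: ATgggGaAtggCAtActattATCCTGgccT
Mup20: ATgggGaAtggTAtActattATGCTGgccA
Mup3: GTgggTaTtggTTtTctattGCTGAAgccT
Mup21: GCgggTaTtggTTtTctattGCTGAAgccT

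This likeness limits what a row of the table can measure, because the libraries read the 3′ ends of transcripts and what was done with reads that fit more than 1 gene is not given in the sources used here. Of the 50-base words in the last 500 bases of the annotated transcript, 0% were found in no other annotated gene for Mup1, Mup7, Mup10, Mup14 and Mup22. In each of these 5 transcripts a word occurred in a median of 14 other genes. Their rows still held many counts, for Mup10 122736 to 355864 in the AAV-NC livers and 71725 to 303615 in the AAV-TuD livers. Whether such reads were counted in 1 row or in several was not tested. The unique share was 21.5% for Mup11, 42.6% for Mup17, 72.3% for Mup20, 73.2% for Mup21 and 91.8% for Mup3. Counts of the 7 near-identical members are therefore uncertain as counts of single genes, while most of the words of Mup20, Mup3 and Mup21 are their own. Whether the reads counted for these 3 fell on those words was not tested. The search covered annotated transcripts on both strands, without introns or intergenic sequence, and the annotated Mup21 transcript may end short of the true one.

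The start sites of 7 members were found in the RefSeq promoter table (GRCm38.p6), and those of Mup1, Mup20 and Mup22 were not. The letters TATATAA, a form of the TATA box, searched for on either strand of the 300 bases from 250 before to 50 after the start, were present in 6 of the 7 (Mup3, Mup10, Mup11, Mup14, Mup17 and Mup21) and in 3.24% of all 32851 promoters of that table. The first letter of the match lay 30 bases before the RefSeq start in Mup10, 25 in Mup17, 11 in Mup3, 8 in Mup21 and 2 in Mup11. In Mup14 the match began 12 bases after that start. These distances depend on the annotation. In GENCODE M21 Mup10 starts at base 60582199 and Mup14 at 61304000, while their matches begin at 60582185 and 61303986. By that annotation the match lies inside the transcript in all 6 genes, at the same distance from the start. The letters TTCNNNGAA, the core to which STAT5 dimers bind, were found in 0 of the 7 windows and in 8.3% of all promoters. The 30 bases from the TATA match onward are shown because they separate the same kinds of gene, with the match in capitals. Mup11, Mup14 and Mup17 carry the letters given for Mup10, at chr4:60582156-60582185, and the stretches of Mup3 and Mup21 lie at chr4:62087299-62087328 and chr4:62150820-62150849, all on the minus strand.
Mup10: TATATAAggacaagcaaaggggctggggag
Mup3: TATATAAggacaagcaaaggagctggggag
Mup21: TATATAAggacaagcaaaggagctgaggag

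Together the 10 members took up a large and very unequal part of the counts. The rule for reads that fit more than 1 gene is not given, so a read may stand in more than 1 of these rows. The shares below are therefore shares of counted reads. In the AAV-NC livers they held 9.004% (replicate 1), 10.1% (2), 9.87% (6), 19.8% (7) and 7.67% (8) of all reads. In the AAV-TuD livers they held 16.4% (replicate 3), 4.53% (4), 15.3% (5), 5.60% (9), 5.62% (10) and 8.35% (11). One liver of the control group and a pair of the decoy group, AAV-NC 7, AAV-TuD 3 and AAV-TuD 5, thus stood above all the others, and AAV-TuD 4, 9 and 10 stood below all the others. The mean share was 11.3% ± 4.85 (SD, n = 5) in AAV-NC and 9.29% ± 5.22 (SD, n = 6) in AAV-TuD, and the ranges overlapped. The exact 95% binomial interval of each share is narrow at this depth (19.8% in AAV-NC 7 has bounds of 19.77% and 19.82%). It covers counting error only and takes each count as a separate read. The 40 rows of the family together held 8.58% to 40.2% of the reads of a liver, of which the 10 members made up 49.2% to 53.1%. The reads left for all other genes depended on library size as well as on this share. They ranged from 6558828 in AAV-NC 2, the smallest library (8148531 reads), to 9498672 in AAV-TuD 9. AAV-NC 7, with 40.2% of its reads on the family, kept 7156095.

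**Figure D1:**
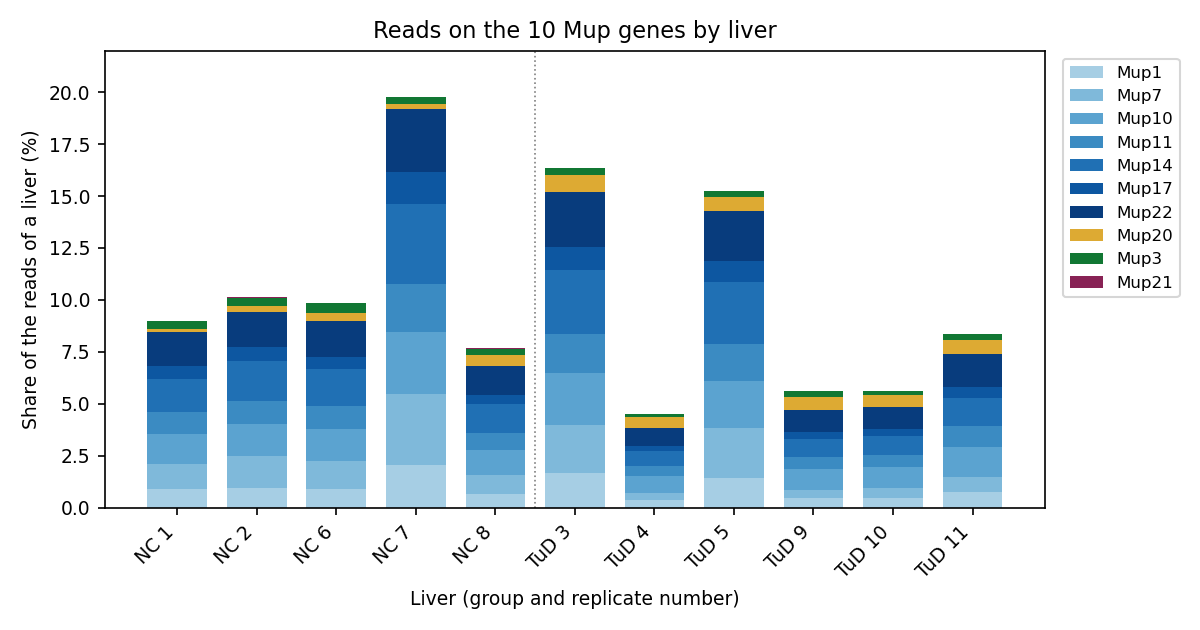
Share of the counted reads of each liver, in percent from 0, that fell on the 10 Mup genes, stacked by gene. The 5 AAV-NC livers are left of the dotted line and the 6 AAV-TuD livers right of it. A read may have been counted for more than 1 gene. AAV-NC 7 (19.8%), AAV-TuD 3 (16.4%) and AAV-TuD 5 (15.3%) are the tallest bars, the 7 near-identical members (blue) make up most of every bar, and the band of Mup20 (yellow) is wider in the AAV-TuD livers than in AAV-NC 1, 2, 6 and 7.

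To follow single genes, reads were expressed as CPM (counts per 1000000 reads), with library sizes scaled by TMM (trimmed mean of M values, which sets the libraries on a common scale from the bulk of the genes). CPM was not divided by transcript length, so comparisons between genes below are of reads and not of molecules per length. Mup14 and Mup22 ranked between 1st and 3rd of the 10 members in every liver, Mup10 between rank 2 and 4, Mup11 between 4 and 5, Mup1 between 5 and 6, Mup17 between 7 and 8 and Mup3 between 8 and 9. Mup21 was in 10th place in all 11 livers. Mup7 moved between rank 2 and 7 and Mup20 between rank 4 and 9. In AAV-NC the mean CPM was 25162 ± 18670 (SD, n = 5) for Mup14 and 22131 ± 13211 (SD, n = 5) for Mup22. Within single livers Mup14 had 0.779 to 1.28 reads per read of Mup22, so their order changed between livers.

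Mup7 shows the pattern of the 7 near-identical members in its widest form. Its CPM in the AAV-NC livers was 12389, 15746, 13457, 51043 and 8660 in replicates 1, 2, 6, 7 and 8. In the 6 AAV-TuD livers its lowest CPM was 2742, its median 5124 and its highest 26797. The value of AAV-NC 7 was above all others, AAV-TuD 5 and 3 came next, and AAV-TuD 4 was lowest. Mup14, with the most reads of the 10 on average, had a CPM of 16887, 19569, 17815, 58304 and 13237 in the same AAV-NC livers, and of 5665 (lowest), 9885 (median) and 34557 (highest) in the AAV-TuD livers. Again AAV-NC 7 stood apart from the other controls, and the 3 highest livers of the 11 were AAV-NC 7, AAV-TuD 3 and AAV-TuD 5. The same 3 livers were the highest for each of the 7 near-identical members. Mup1, a member for which effects on hepatic glucose production have been described, had a median CPM of 9388 in AAV-NC and 5356 in AAV-TuD. The medians of Mup10, Mup11, Mup17 and Mup22 in AAV-NC were 15583, 11143, 6506 and 17287 CPM, and in AAV-TuD they were 10819, 7104, 3873 and 11950 CPM in that order. In each of these 5 genes, too, the range of the AAV-NC livers and that of the AAV-TuD livers overlapped.

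Mup20, Mup3 and Mup21 did not follow the 7 in the same way. The CPM of Mup20 in AAV-NC replicates 1, 2, 6, 7 and 8 was 1539, 2755, 3619, 3358 and 5171. In the AAV-TuD livers its lowest CPM was 4261, its median 5646 and its highest 9161. Of the controls, AAV-NC 8 alone reached into the range of the AAV-TuD livers, and AAV-NC 7, the highest liver for the 7 near-identical members, had the third highest Mup20 of 5 controls. For Mup3, a liver-expressed member at the end of the array, the CPM was 4162, 4245, 4909, 5240 and 2987 in the AAV-NC livers. In the AAV-TuD livers it was 1380 at the lowest, 2387 at the median and 3819 at the highest. AAV-NC 8 was the lowest control, and among the decoy livers AAV-TuD 3 and AAV-TuD 5 alone lay above it. The CPM of Mup21 was 177, 195, 184, 249.7 and 153 in the AAV-NC livers, and 50.4 (lowest), 77.5 (median) and 174 (highest) in the AAV-TuD livers. Of the AAV-TuD livers, AAV-TuD 3 alone reached into the AAV-NC range of Mup21.

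**Figure D2:**
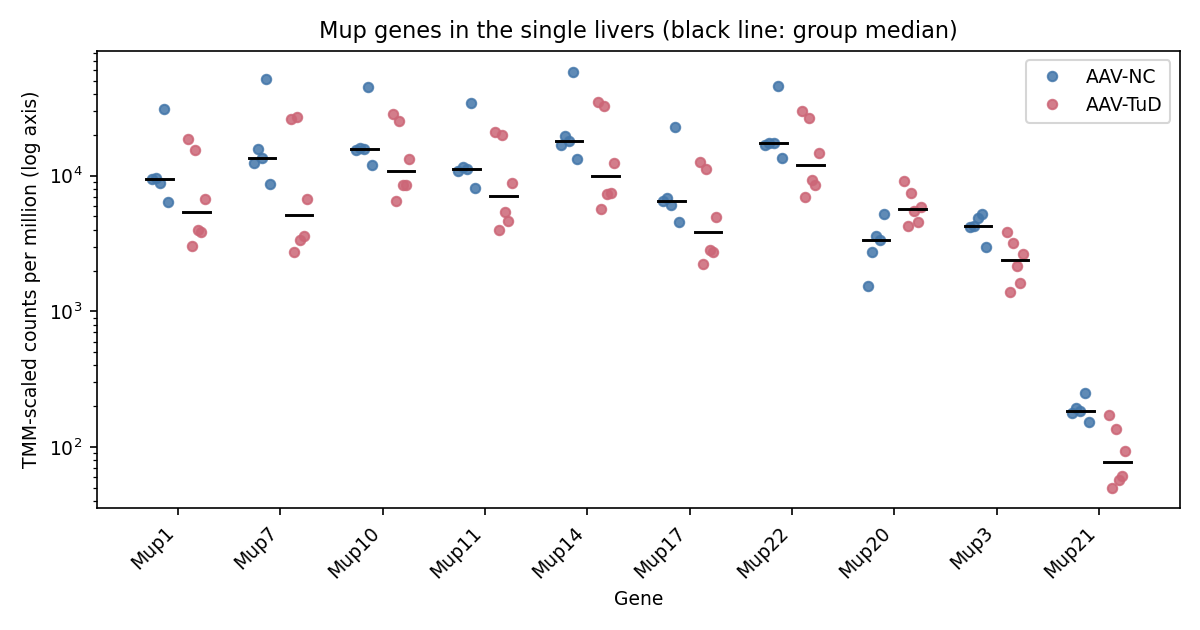
TMM-scaled CPM on a log axis for each of the 10 Mup genes, with 1 point per liver (5 AAV-NC in blue, 6 AAV-TuD in red) and a black line at the group median. One AAV-NC liver, replicate 7, lies far above the other controls in each of the 7 genes from Mup1 to Mup22, AAV-TuD livers 3 and 5 lie above the other decoy livers there, and the medians of AAV-TuD are above those of AAV-NC for Mup20 alone.

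The spread between livers was larger for the 7 near-identical members than for nearly all other abundant genes. Their coefficient of variation (CV, the SD as a percentage of the mean CPM) was between 59.7% (Mup22) and 85.9% (Mup7) in AAV-NC. In AAV-TuD it was between 62.3% (Mup22) and 101% (Mup7). The median CV of the 932 other genes that averaged 1000 or more reads was 8.84% in AAV-NC and 8.12% in AAV-TuD, and over all genes tested it was 16.9% and 16.1%. The 10 genes outside the family with as many reads as Mup17, the least abundant of the 7 (70924 reads on average), had CVs of 4.52% to 17.8% in AAV-NC and 4.01% to 23.3% in AAV-TuD. For Mup7, 0 of those 932 genes had a larger CV in either group, and for each of the other near-identical members between 0 and 4 had one. The members were chosen by such spread, so these ranks describe them and are no test. The high CVs of the control group rested on 1 liver. Without AAV-NC 7 the 7 near-identical members had CVs of 11.6% (Mup22) to 23.5% (Mup7) in the remaining 4 controls. In AAV-TuD no single liver had this effect on Mup7, whose CV stayed between 91.0% and 119% with each of the 6 livers left out.

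Mup20 had a CV of 40.2% in AAV-NC and 30.6% in AAV-TuD, and that of AAV-NC was 27.6% to 47.2% when 1 control was left out. Mup3 varied by 20.1% in AAV-NC and 38.0% in AAV-TuD, and by 11.2% among the controls without AAV-NC 8. Mup21 varied by 18.8% in AAV-NC and 52.4% in AAV-TuD, and by 10.1% among the controls without AAV-NC 7. Among the 932 abundant genes, 15 had a larger CV than Mup20 in AAV-NC, 106 a larger one than Mup3 and 125 a larger one than Mup21. In AAV-TuD 27 had a larger CV than Mup20, 14 a larger one than Mup3 and 5 a larger one than Mup21. The difference between the groups in spread was not tested.

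**Figure D3:**
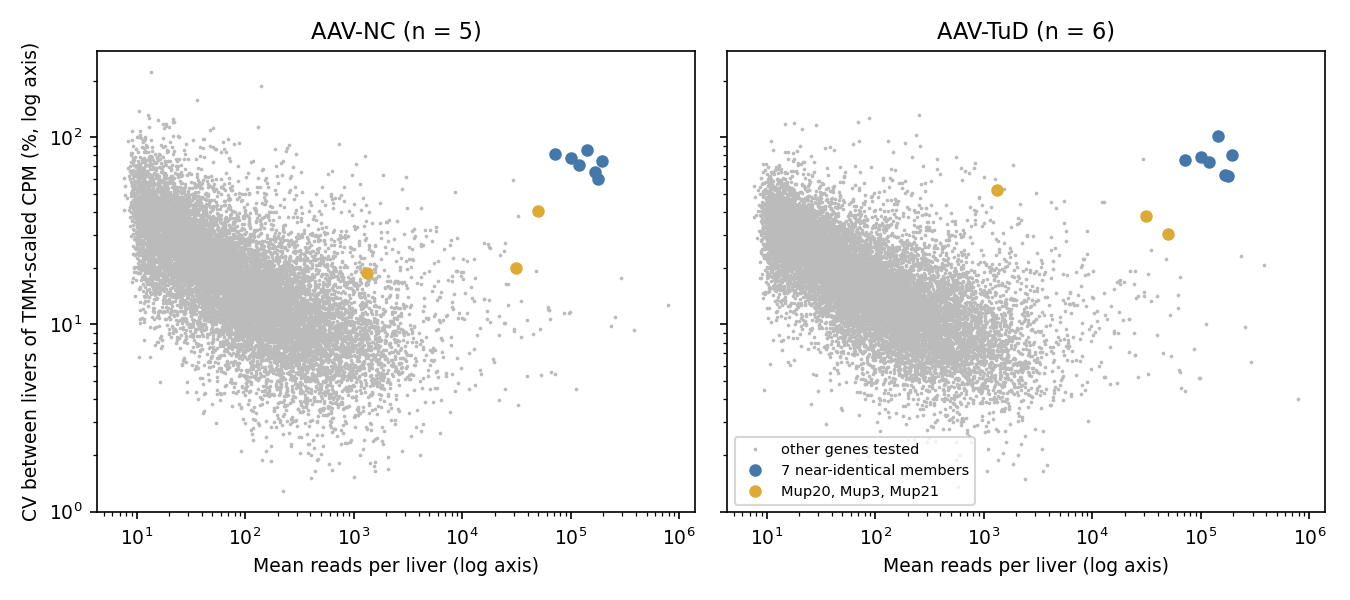
Coefficient of variation between livers of the TMM-scaled CPM (percent, log axis) against mean reads per liver (log axis) for all genes tested, in AAV-NC (left, n = 5) and AAV-TuD (right, n = 6), with Mup family rows outside the 10 left out. The 7 near-identical members (blue) sit at 59.7% to 101% among genes whose median is near 8% to 9%, while Mup3 and Mup21 (yellow, with Mup20) lie near 20% in AAV-NC and higher in AAV-TuD.

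The ratios between members show which of them varied together. Over the 21 pairs of the 7 near-identical members, the SD within groups of the log2 ratio of reads was between 0.04 and 0.52. The tightest pair was Mup1 and Mup17, whose ratio was between 1.35 and 1.48 in all 11 livers, and the next was Mup10 and Mup22, between 0.888 and 0.998. Mup7 kept the loosest ratio to its neighbours. It had 0.809, 0.990, 0.864, 1.15 and 0.725 reads per read of Mup10 in the AAV-NC livers. In the AAV-TuD livers this ratio was 0.922 (replicate 3), 0.420 (4), 1.07 (5), 0.394 (9), 0.422 (10) and 0.507 (11). The 3 livers with the most Mup reads thus had 3 of the 4 highest ratios of Mup7 to Mup10, so the 7 rows did not rise and fall in a single fixed proportion. With Mup20 the log2 ratio of the 7 had an SD of 0.73 to 1.15, and with Mup3 or Mup21 an SD of 0.33 to 0.91. Mup3 and Mup21, whose coding sequences are 95.4% identical, kept an SD of 0.23. The correlation over the 11 livers of log2 CPM, centred on the group means, was 0.985 to 0.999 within the 7, 0.864 to 0.955 between Mup3 or Mup21 and the 7, and 0.420 to 0.464 between Mup20 and the 7. These correlations are descriptions, since the rows share libraries and, among the 7, may share reads.

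**Figure D4:**
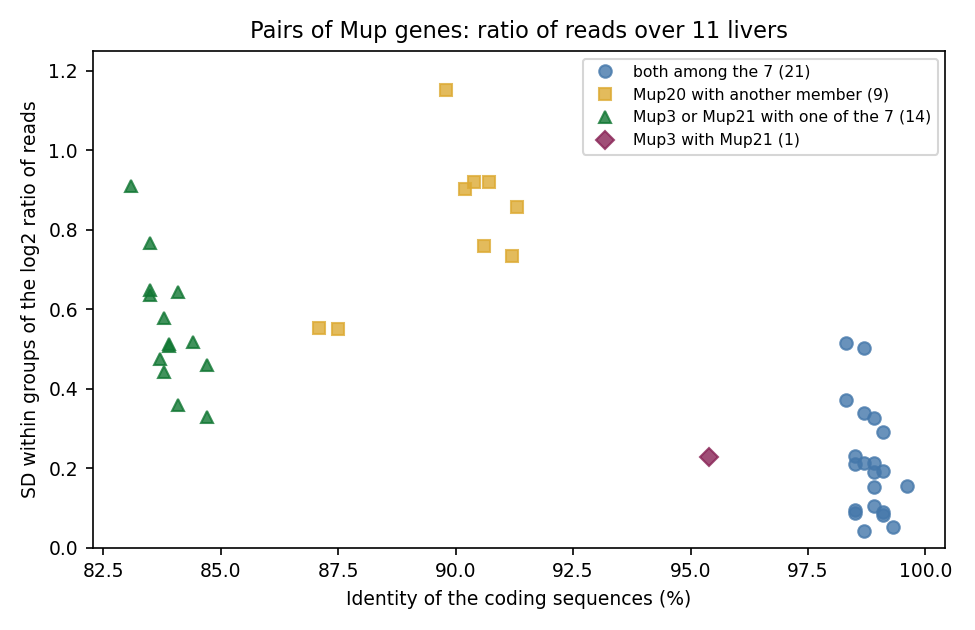
For the 45 pairs of the 10 Mup genes, the SD within groups of the log2 ratio of reads (vertical, from 0) against the identity of the coding sequences in percent (horizontal). The 21 pairs of near-identical members (blue) have SDs from 0.04 to 0.52, Mup3 with Mup21 (purple) has 0.23, and pairs with Mup20 (yellow) have SDs of 0.55 to 1.15.

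As a part of the reads on the 10 members, Mup20 made up 1.64%, 2.65%, 3.66%, 1.13% and 6.92% in AAV-NC replicates 1, 2, 6, 7 and 8. In the AAV-TuD livers it made up 4.95% (replicate 3), 11.6% (4), 4.40% (5), 11.3% (9), 9.95% (10) and 7.73% (11). The AAV-TuD livers 4, 9 and 10, with the fewest Mup reads, had the largest parts of Mup20. There Mup20 had more reads than Mup7 and Mup1. Mup20 had more reads than Mup3 in 7 livers, which were AAV-NC 8 and all 6 AAV-TuD livers. Mup21 made up 0.0842% to 0.204% of member reads in AAV-NC and 0.0814% to 0.137% in AAV-TuD.

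Between the groups, Mup20 was higher and Mup3 and Mup21 were lower with the decoy, and no difference passed the test for the 7 near-identical members. In edgeR's quasi-likelihood test over 13334 genes with Benjamini-Hochberg adjustment, the log2 fold change of AAV-TuD against AAV-NC was 0.89 (SE 0.26, adjusted p = 0.0376) for Mup20. It was -0.81 (SE 0.23, adjusted p = 0.0332) for Mup3. It was -1.004 (SE 0.27, adjusted p = 0.0257) for Mup21. Thus 1 of 10 members was called higher and 2 of 10 lower at an adjusted p under 0.05, against 7.24% and 4.33% of all genes tested, and 11.6% in either direction. With so few members, nothing particular to the Mup genes is read from these shares. The 7 others had log2 fold changes of -0.81 (Mup7, SE 0.62) to -0.46 (Mup10, SE 0.41), with adjusted p of 0.448 to 0.528 in edgeR. The median log2 fold change of the 10 was -0.59, and that of all genes tested was -0.002. The groups did not overlap in CPM for 0 of the 10 members, against 7.39% of all genes. In bulk liver, fewer cells that express a gene and less of its RNA per cell cannot be told apart. The p-values set the difference between the groups against the spread between livers within groups. The labels do not say whether the mice were treated in separate batches, so the p-values take no account of batches.

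The 3 calls depended on single livers. With each of the 11 livers left out in turn, Mup20 kept its direction but not its call without AAV-NC 1, 2, 6 or 7 or without AAV-TuD 3, 5, 9 or 11 (edgeR adjusted p up to 0.0837). Mup3 lost its call without AAV-NC 1, 2, 6 or 7 or AAV-TuD 4, 9, 10 or 11 (up to 0.0745), and Mup21 without AAV-NC 7 or AAV-TuD 4, 9 or 10 (up to 0.0626). Without AAV-NC 7 the median log2 fold change of the 10 members was -0.002, and the number called in edgeR was 0 higher and 0 lower, with Mup20, Mup3 and Mup21 at unadjusted p of 0.00704, 0.00923 and 0.00709.

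**Figure D5:**
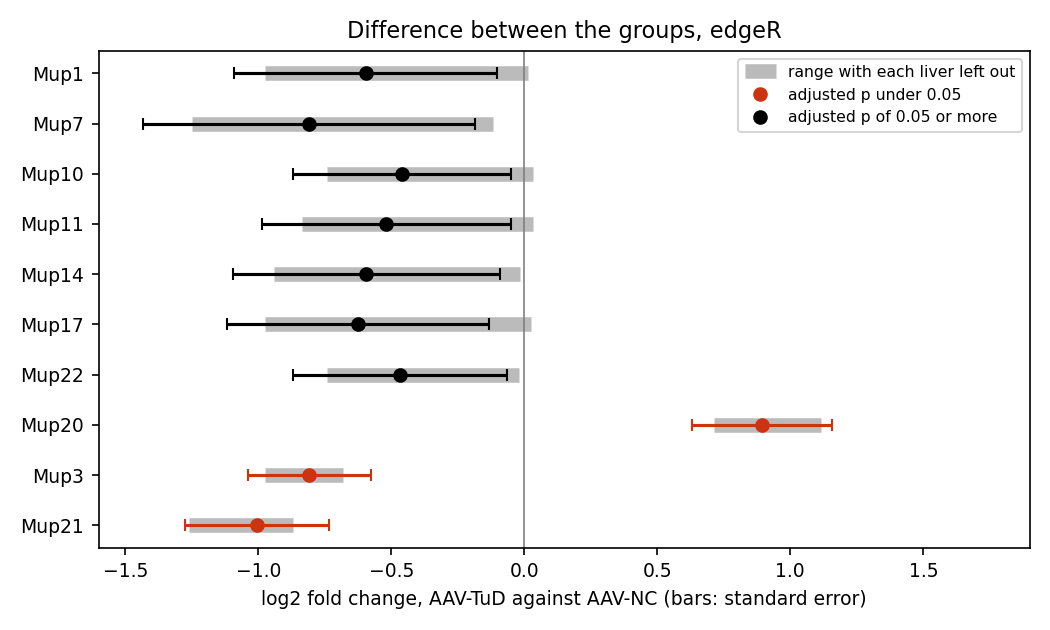
log2 fold change of AAV-TuD against AAV-NC with its standard error (bars) for the 10 Mup genes from edgeR, in red where the adjusted p is under 0.05, over a grey band that spans the values with each of the 11 livers left out. Mup20 lies at 0.89 and Mup3 and Mup21 at -0.81 and -1.004 with bands that stay on their side of 0, while the bands of Mup1, Mup10, Mup11 and Mup17 cross 0.

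Markers of some other liver cells differed between the groups, and their part in the Mup differences was not tested. Of all genes tested, 7.24% were called higher and 4.33% lower with the decoy. The summed CPM of 5 hepatic stellate cell markers was 164 to 228 in AAV-NC and 281 to 365 in AAV-TuD, with 4 of 5 called higher. That of the cholangiocyte markers was 20.3 to 40.9 in AAV-NC and 47.5 to 79.3 in AAV-TuD, with 4 of 4 tested called higher and Krt7 not among the genes tested. Kupffer cell markers summed to 48.7 to 78.0 and 58.1 to 165 CPM, with 3 of 5 higher, and endothelial markers to 120 to 146 and 125 to 136 CPM, with 0 of 5 called in edgeR and 0 at an unadjusted p under 0.05. The 7 hepatocyte markers summed to 36791 to 42870 CPM in AAV-NC and 43603 to 50335 CPM in AAV-TuD, and 0 of 7 were called in edgeR, with 1 higher and 1 lower at an unadjusted p under 0.05. Alb, the largest part of the sum, averaged 21096 CPM in AAV-NC and 28044 CPM in AAV-TuD. Ttr also had a higher mean with the decoy (5088 and 5415 CPM). Apoa1 (6741 and 5859 CPM) and Serpina1c (4587 and 3590 CPM) had lower ones.

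Of 26 measured genes of the growth hormone pathway and other known regulators of Mup transcription, 1 was higher, 3 were lower and 22 did not pass the test, with a median log2 fold change of -0.15. The 4 calls are 15.4% of the list, against 11.6% of all genes tested. The gene called higher was Zbtb20, a zinc finger transcription factor of hepatocytes, at 512 ± 71.8 CPM in AAV-NC (SD, n = 5) and 673 ± 87.0 in AAV-TuD (SD, n = 6), with a log2 fold change of 0.39 (SE 0.11, edgeR adjusted p = 0.0299). Those called lower were Thrb, the thyroid hormone receptor of liver (log2 fold change -0.38, SE 0.08, edgeR adjusted p = 0.0057), and the hepatocyte transcription factors Hnf4a (-0.38, SE 0.09, 0.015) and Foxa3 (-0.54, SE 0.14, 0.0184). The groups did not overlap in CPM for 2 of the 26, against 7.39% of all genes, namely Thrb and, named here after its values were seen, Thra, the other thyroid hormone receptor. Thra had 12.4 ± 0.94 CPM in AAV-NC and 14.9 ± 0.60 in AAV-TuD (log2 fold change 0.27, SE 0.09, edgeR adjusted p = 0.0554) and was not called. With library size alone as the scale, which shifts the median of all genes tested to 0.23, 0 of the 26 were called lower. Zbtb20 was not called without AAV-NC 1, 6 or 8 or without AAV-TuD 4, 5 or 11, with an edgeR adjusted p up to 0.0702.

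Outside the Mup family, genes known to be higher in male than in female liver were called lower for 2 of 16 and higher for 0, with a median log2 fold change of -0.31. The 2 calls are 12.5% of the list, near the 11.6% of all genes. These were Hsd3b5, a steroid dehydrogenase, at 65.1 ± 14.5 CPM in AAV-NC and 20.03 ± 15.4 in AAV-TuD (log2 fold change -1.71, SE 0.39, edgeR adjusted p = 0.0112), and Slco1a1, an organic anion uptake carrier, at 325 ± 55.6 and 150 ± 65.6 CPM (-1.12, SE 0.24, 0.00737). Both kept their call whichever liver was left out. The 0 called higher compares with 1 at an unadjusted p under 0.05 and with 0 in DESeq2. Of 12 measured genes known to be higher in female liver, 2 were higher (Prom1 and Fmo2) and 1 was lower (25.0% called, against 11.6% of all genes), with a median of 0.27. Prom1, a membrane glycoprotein also found in bile duct cells, had a log2 fold change of 1.66 (SE 0.26, edgeR adjusted p = 0.00133). It was rare, at 0.86 ± 0.25 CPM in AAV-NC and 2.76 ± 0.68 in AAV-TuD, with 20.4 reads per liver on average. Prom1 may have passed the filter through the AAV-TuD livers alone. Fmo2, a flavin monooxygenase, had 0.75 (SE 0.21, edgeR adjusted p = 0.0283), and was not called without AAV-NC 7 or 8 or without AAV-TuD 4 or 9, with an adjusted p up to 0.0629. Cyp17a1, an enzyme of androgen synthesis, had -1.54 (SE 0.34, edgeR adjusted p = 0.00972). The count of this list called higher was 1 without AAV-NC 7, without AAV-NC 8 or without AAV-TuD 4, and 6 without AAV-NC 1, and with library size alone as the scale it was 5.

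MUPs belong to the lipocalins, and of 9 other lipocalins measured 3 were higher and 0 were lower (33.3% called, against 11.6% of all genes), with a median log2 fold change of 0.12. They were the acute phase protein Orm3 (1.62, SE 0.30, edgeR adjusted p = 0.00353), the siderophore-binding Lcn2 (2.28, SE 0.51, 0.0102) and the prostaglandin D synthase Ptgds (1.39, SE 0.36, 0.0203). Ptgds was not called by limma-voom with quality weights (adjusted p = 0.0557). These 3 were rare transcripts beside the Mup genes, with mean CPMs of 0.63 to 9.52 in either group. Lcn2 averaged 0.63 CPM in AAV-NC and 3.13 CPM in AAV-TuD, and may have passed the filter through the AAV-TuD livers alone. Against the 0 called lower in edgeR, 2 were lower at an unadjusted p under 0.05 and 1 in DESeq2. Among 23 other abundant secreted products of hepatocytes, from albumin to the fibrinogen chains, 0 were higher and 2 were lower (8.70% called, against 11.6% of all genes), with a median of -0.12. The 2 were Apob, the structural protein of very low density lipoprotein (-0.40, SE 0.10, edgeR adjusted p = 0.0146), and Serpina1d, a protease inhibitor (-0.40, SE 0.12, 0.0411). At an unadjusted p under 0.05, 3 of these 23 were higher and 8 lower. DESeq2 called 3 higher and 7 lower, and with library size alone as the scale 0 were called lower. The count of Serpina1d may share reads with its near-identical neighbours, and its call was lost with upper-quartile factors (edgeR adjusted p = 0.0501) and without AAV-NC 1, 2, 7 or 8 or without AAV-TuD 4, 9, 10 or 11 (edgeR adjusted p up to 0.0973).

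The genes outside the family whose level followed the summed Mup reads most closely were found over the 11 livers, among the 8339 genes that averaged 50 or more reads. For this, log2 CPM per reads outside Mup genes was centred on the group means, and the correlations are descriptions, since the genes were picked as the extremes and share the libraries. Dio1, the type 1 deiodinase that converts thyroxine to its active form, had the highest Pearson's r, 0.974 (Spearman's rho 0.964, and r 0.941 without AAV-NC 7 and AAV-TuD 3, the livers farthest from the median of the Mup level). It was followed by 1700026J12Rik (r 0.960), Pan2, a subunit of the poly(A) nuclease (r 0.958), Tedc2 (r 0.932) and Gm45792 (r 0.931). The lowest were Gsta2, a glutathione transferase (r -0.953), Hsd17b13, a protein of lipid droplets (r -0.947), and Arhgap18, a GTPase-activating protein (r -0.925). Without those livers the size of r was between 0.855 and 0.947 for the 8 genes. Between the groups, Gm45792 was lower with the decoy (log2 fold change -2.41, SE 0.36, edgeR adjusted p = 0.00106) and Arhgap18 was higher (0.68, SE 0.19, 0.0286), and Dio1 was not called (-0.39, SE 0.36, edgeR adjusted p = 0.537).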

How the data were processed

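Livers of 11 mice (5 AAV-NC, 6 AAV-TuD, grouped by the sample titles) were profiled from 500 ng of RNA with QuantSeq 3′ libraries. The authors used BBDuk for trimming, STAR 2.5.3a for alignment to GRCm38 and Rsubread for counting, and the deposited table gives raw counts of whole reads for each gene. The authors' own testing used DESeq2 1.38.3. The annotation, strand setting and rule for reads fitting more than 1 gene are not given in the sources used here. Of 13669 genes, 140 carry no symbol and were named by identifier. Totals of 8148531 to 12043959 reads make counting error small for the Mup genes.

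The members and gene lists were chosen with earlier results of these data known. The 13334 genes that had over 10 reads in 5 or more livers were fitted with edgeR 4.0.16 (TMM, quasi-likelihood test, Benjamini-Hochberg over all genes, threshold 0.05) in R 4.3.3. The script was tested on simulated data. Alternatives were 3 other scalings, TMM without Mup reads, 2 other filters, DESeq2 1.42.0, limma 3.58.1 (voom with quality weights) and each liver left out. The transcript and coding sequences of GENCODE M21 were aligned with MAFFT 7.526, and words of 50 bases (also 75 and 100) in the last 500 bases (also 300) were searched in all its transcripts. Named genes were the 10 members, up to 3 genes per list and direction with the smallest p, and the 5 and 3 genes with the highest and lowest correlation. Promoter sequences came from the RefSeq promoter table (GRCm38.p6). No whole genome sequence and no protein sequence was used here.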

Additional observations from a re-analysis of the deposited data

Results flagged for a closer look

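In 15 of 86 groups of values examined (17.4%), the gap of the highest or lowest liver to its nearest neighbour, as a part of the whole range of the group, was above Dixon's 95% limit. Chance flags about 1 in 20 groups, but nothing is read from that comparison here. The members were chosen for their spread, and 5 other genes for following the Mup level, so for them the gaps describe the livers and are no test. AAV-NC 7 was the high liver for the summed share of the 10 members (0.798, with 19.8% against 10.1% in the next control). It was also the high liver for the CPM of all 7 near-identical members, with gaps of 0.869 for Mup1, 0.833 for Mup7, 0.879 for Mup10, 0.873 for Mup11, 0.86 for Mup14, 0.879 for Mup17 and 0.876 for Mup22. It was the low liver for Mup21 as a part of the members' reads (0.846, with 0.0842% against 0.186% in the next control). These values share reads and libraries, so they are not separate signs.

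The 5 genes picked for following the Mup level were, as that choice makes likely, also high in AAV-NC 7 among the controls, with gaps of 0.813 for Dio1, 0.87 for 1700026J12Rik, 0.906 for Pan2, 0.775 for Tedc2 and 0.732 for Gm45792. For Pan2 it had 49.3 CPM, against 18.4 CPM in the next control. Apob was low in AAV-NC 6 (0.743, with 1360 CPM against 1636 CPM in the next control). The causes were not tested.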

How the results depend on the processing

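Mup20, Mup3 and Mup21 kept direction and call under all 8 processing alternatives, with adjusted p of 0.00203 to 0.0384, 0.0117 to 0.0373 and 0.00277 to 0.041, and the 7 near-identical members were called under none of them. With livers left out, the members called numbered 0 to 1 higher and 0 to 2 lower, and the log2 fold changes of Mup1, Mup10, Mup11 and Mup17, uncalled throughout, ran from -0.98, -0.74, -0.83 and -0.97 (without AAV-TuD 3) to 0.013, 0.034, 0.031 and 0.024 (without AAV-NC 7). For the gene lists, left-out livers gave 0 to 1 higher and 3 to 5 lower regulators, 0 to 1 higher and 2 to 3 lower male-biased genes, 1 to 6 higher female-biased genes, 3 to 4 higher lipocalins and 1 to 2 lower secreted proteins. DESeq2 called 3 secreted proteins higher and 7 lower, 4 female-biased genes higher and 1 lipocalin lower. Voom called 2 secreted proteins higher and 6 lower and 1 male-biased gene higher. Upper-quartile factors gave 1 secreted protein lower and 4 female-biased genes higher. Library size alone gave 0 secreted proteins and 0 regulators lower, 5 female-biased genes and 1 male-biased gene higher, and over all genes 1386 higher and 71 lower in place of 966 and 577. Without AAV-TuD 4, 675 genes were higher and 337 lower. The mean summed share of AAV-NC was 17.9% of a total without the other 50 top genes. The 5 members with at least 20% unique 50-base words are Mup3, Mup11, Mup17, Mup20 and Mup21. With these alone the mean summed share was 2.77% in AAV-NC and 2.56% in AAV-TuD, by construction lower. Most of it lay on Mup11 and Mup17 (means of 1.28% and 0.777% in AAV-NC), whose words are mostly shared. Left-out livers moved the summed share between 9.17% and 12.2% in AAV-NC and between 7.87% and 10.2% in AAV-TuD. The cause of the changes with tool and scale was not tested. No paired analysis was possible because the groups share no replicate numbers.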

Other observations

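These ratios involve Mup rows outside the 10 members and were chosen after their values were seen. The reads of Mup5 per read of Mup4 lay between 0.992 and 1.06 in all 11 livers. The pseudogene Mup-ps19 had 0.313 to 0.358 reads per read of Mup20 in all 11 livers. Whether these rows counted the same reads was not tested.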
